A study of Mus musculus with 32 samples.

Results

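Ligature and occlusal overload were applied together to an upper molar, and their combined effect was set side by side in bone and in gingiva. The members were 16 of the 32 libraries of the series: 4 LiTra and 4 Co libraries of bone, and 4 LiTra and 4 Co libraries of gingiva. LiTra mice carried a 6-0 silk thread round the left second molar of the upper jaw and a build-up of composite resin on the biting surface of the same tooth. Co mice received no treatment. All mice were wild-type C57BL/6J males aged 9 weeks, an inbred laboratory strain, and the labels give no time between treatment and sampling. Poly(A) RNA of whole tissue was sequenced, so fewer cells of a type and less RNA per cell cannot be told apart.

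A pair of measures is used. The first is the difference of effects, the LiTra effect in bone minus the LiTra effect in gingiva, which is negative where gingiva went further up or bone further down. The second is the set of genes that moved alike, meaning that they passed the test in the same direction in both tissues and that the 95% interval of their difference lay within 1 log2 unit of 0. Effects are log2 fold changes, LiTra over Co, given ± SE, from edgeR's quasi-likelihood test with 4 libraries per group. The word further compares these fold changes and not the gain or loss in level. The SE was derived as the size of the effect divided by the square root of the test's F value. The 95% intervals were built from this SE. Gene levels are in CPM, a share of each library on a fixed scale, with TMM factors computed per tissue, and a gene was called at an adjusted p under 0.05.

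A thread round a molar collects bacterial plaque and is a standard way to induce periodontitis in mice. Gingival tissue answers with cytokines such as interleukin 6, with chemokines that draw neutrophils and monocytes, and with RANKL, the membrane or soluble ligand that turns monocyte-lineage precursors into bone-resorbing osteoclasts. Jaw bone holds marrow, where neutrophils, red cells and B cells are made and kept in place by stromal factors such as the chemokine CXCL12. Gingiva is a stratified epithelium over connective tissue and holds no marrow.

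Each tissue had the higher level of its own marker gene below, but some libraries also held genes of other tissues. Bglap, the osteocalcin gene of osteoblasts, averaged 610.5 ± 234 CPM in LiTra bone and 1325 ± 273 CPM in Co bone (SD, n = 4), against 12.5 ± 8.78 CPM in LiTra gingiva and 134 ± 64.8 CPM in Co gingiva. Krt14, a keratin of basal epithelium, had 98.4 to 709 CPM in LiTra bone and 5.41 to 16.6 CPM in 3 Co bone libraries, but 1559 CPM in bone Co 1. It had 16923 to 20361 CPM in LiTra gingiva and 8935 to 12687 CPM in Co gingiva. Genes of a salivary and nasal gland list took 51.5% of the counts in bone LiTra 1, 48.0% in bone Co 3 and 15% in bone Co 4, and under 1% in each of the other 13 libraries. Haemoglobin transcripts took 0.203 to 0.525% of the counts in LiTra bone and 1.36 to 4.43% in Co bone. Library totals were 39950342 to 70793037 counts in the 8 bone libraries and 39202498 to 42787336 in the 8 gingiva libraries.

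The combined treatment changed many genes in each tissue. In bone 3589 of 21205 tested genes were called (16.9%), 1757 higher (8.29%) and 1832 lower (8.64%). In gingiva 4608 of 20143 were called (22.9%), 2293 higher (11.4%) and 2315 lower (11.5%). The effect itself differed between the tissues for 2768 of 22559 genes (12.3%), with 1260 more positive in bone (5.59%) and 1508 more positive in gingiva (6.68%). The median log2 effect over all tested genes was -0.01 in each tissue. Among the 19225 genes tested in both, 1029 were called in both, which is 29.8% of the bone calls and 22.9% of the gingiva calls. Of these, 844 shared a direction (82.0%), 570 higher and 274 lower, and 185 were opposite (0.962% of the 19225). A further 1107 genes (5.76%) were called in bone only and 1002 (5.21%) in gingiva only, in each case with a called difference. The shares of all tested genes given here are the background for the list counts below, and a list count near them says nothing particular about its list.

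The bone side of these counts depended on how libraries were scaled. With library totals as the only scaling, 12 genes were called in bone, 4652 in gingiva and 17 for the difference. Leaving out the gland-rich bone libraries Co 3, LiTra 1 and Tra 3 together (Tra mice had the resin alone and enter only the estimate of spread) gave 4841 calls in bone and 3427 for the difference. Without bone Co 4 the bone count was 2169, and without bone LiTra 2 it was 2237.

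**Figure D1:**
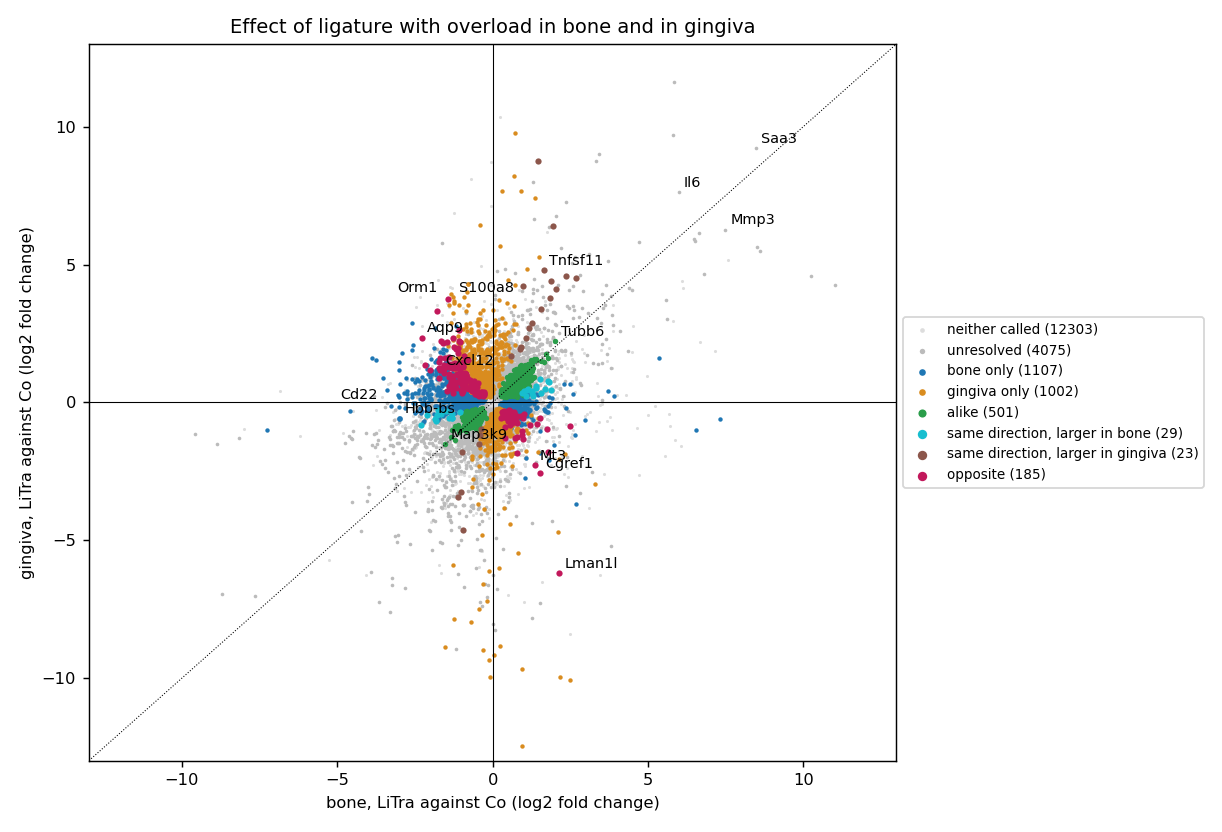
Each point is a gene tested in both tissues, with its log2 fold change of LiTra against Co in bone on the x axis and in gingiva on the y axis, and the dotted line marks equal effects. The 501 genes that moved alike lie along the line, the 185 opposite genes fill the upper left and lower right quadrants, and Saa3, Mmp3 and Il6 stand far out near the line.

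Genes that moved alike numbered 501, 2.61% of the genes tested in both tissues, with 340 higher and 161 lower. The clearest was Tubb6 (ENSMUSG00000001473.8), a class V beta-tubulin of the microtubule cytoskeleton. It had 139, 184, 153 and 164 CPM in LiTra bone, against 40.3, 50.8, 29.7 and 36.7 CPM in Co bone. In gingiva it had 133, 105, 113 and 131 CPM in LiTra libraries and 18.7, 27, 28.5 and 28.9 CPM in Co libraries. No LiTra library overlapped a Co library in either tissue, which the rule for naming alike genes by size required. Of all tested genes, 11.9% in bone and 14.5% in gingiva had every LiTra library above every Co library. Its effects were 2.02 ± 0.18 in bone (adjusted p = 4.92e-05) and 2.22 ± 0.20 in gingiva (adjusted p = 6.78e-05), with a 95% interval of the difference from -0.76 to 0.38.

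S100a4, a calcium-binding protein of fibroblasts and motile cells, rose in both tissues. LiTra bone had 111, 173, 168 and 153 CPM and Co bone 52.9, 54.4, 36.2 and 47.9 CPM. LiTra gingiva had 131, 159, 165 and 163 CPM and Co gingiva 52.9, 61.4, 52.1 and 57.7 CPM. The effects were 1.66 ± 0.20 in bone and 1.46 ± 0.11 in gingiva. Ckb, the brain-type creatine kinase that osteoclasts also use, rose by 1.71 ± 0.24 in bone and 1.76 ± 0.32 in gingiva. Nrep, a regulator of TGF-beta output in fibroblasts, rose by 1.77 ± 0.19 in bone and 1.61 ± 0.26 in gingiva. Upp1 (uridine phosphorylase), Tm4sf1 (a tetraspanin-like membrane protein) and the pseudogene Gpr137b-ps were the others named in this direction, with effects from 1.33 to 1.57 in bone and from 1.49 to 1.57 in gingiva. Gpr137b-ps may share reads with its parent gene, so its separate value is uncertain.

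Among the 161 genes that fell alike, Map3k9, a kinase upstream of JNK, had 8.38, 2.71, 5.43 and 4.37 CPM in LiTra bone, against 15.5, 13.8, 16.2 and 14.5 CPM in Co bone. In gingiva it had 8.39, 8.67, 9.3 and 5.25 CPM in LiTra libraries and 23.3, 21, 23 and 23.7 CPM in Co libraries. Its effects were -1.52 ± 0.40 in bone and -1.53 ± 0.24 in gingiva, and the bone call was lost without LiTra 2 or LiTra 4. Aldh2, the mitochondrial aldehyde dehydrogenase, had 174, 136, 188 and 180 CPM in LiTra bone and 310, 337, 317 and 372 CPM in Co bone. In LiTra gingiva it had 33.1, 43.9, 53.7 and 46.1 CPM, against 84.5, 84.2, 93.3 and 82.8 CPM in Co gingiva. It fell by 0.98 ± 0.15 in bone and by 0.96 ± 0.15 in gingiva on the log2 scale, with an interval of the difference from -0.50 to 0.50. Acsl1, which activates long-chain fatty acids, Cebpa, a transcription factor of fat and myeloid cells, and Slco2b1, an organic anion transporter, also fell alike. Their effects were -1.04 ± 0.21, -0.60 ± 0.15 and -1.34 ± 0.26 in bone, and -0.95 ± 0.17, -0.61 ± 0.15 and -1.25 ± 0.29 in gingiva.

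Chaperones and genes of oxygen shortage held several of the shared changes. Hspa8, the constitutive HSC70 chaperone, had 1681, 1561, 1556 and 1815 CPM in LiTra bone and 880, 840, 868 and 827 CPM in Co bone. In gingiva it had 2452, 2101, 2194 and 2435 CPM in LiTra libraries, against 1369, 1422, 1259 and 1448 CPM in Co libraries. Its effects were 0.95 ± 0.13 in bone and 0.74 ± 0.09 in gingiva. Of 11 heat shock genes, 5 rose and 0 fell in bone and 4 rose and 2 fell in gingiva. Hspa8, Hsp90aa1, Dnaja1 and Hspd1 met the criterion for moving alike. The stress-inducible Hspa1b did not pass in either tissue (0.78 ± 0.62 in bone, -0.43 ± 0.24 in gingiva). Hspe1, the mitochondrial partner of HSP60, rose in bone (0.71 ± 0.09) with 0.12 ± 0.09 in gingiva, and the difference was called (0.61 ± 0.13, adjusted p = 0.00493).

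Hif1a, the oxygen-regulated transcription factor, had 180, 264, 166 and 197 CPM in LiTra bone and 127, 96.9, 79.7 and 73.4 CPM in Co bone. LiTra gingiva had 921, 648, 623 and 852 CPM, against 268, 453, 279 and 342 CPM in Co gingiva. Its effects of 1.10 ± 0.21 in bone and 1.18 ± 0.20 in gingiva were alike, as were those of the angiogenic factor gene Vegfa (0.60 ± 0.19 and 0.66 ± 0.14). Of 16 hypoxia and glycolysis genes, 4 rose in bone, 10 rose in gingiva and 0 fell in either tissue. Car9, a carbonic anhydrase induced by low oxygen, rose in gingiva (1.82 ± 0.30) with 0.49 ± 0.32 in bone (difference -1.32 ± 0.44, adjusted p = 0.0463).

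**Figure D2:**
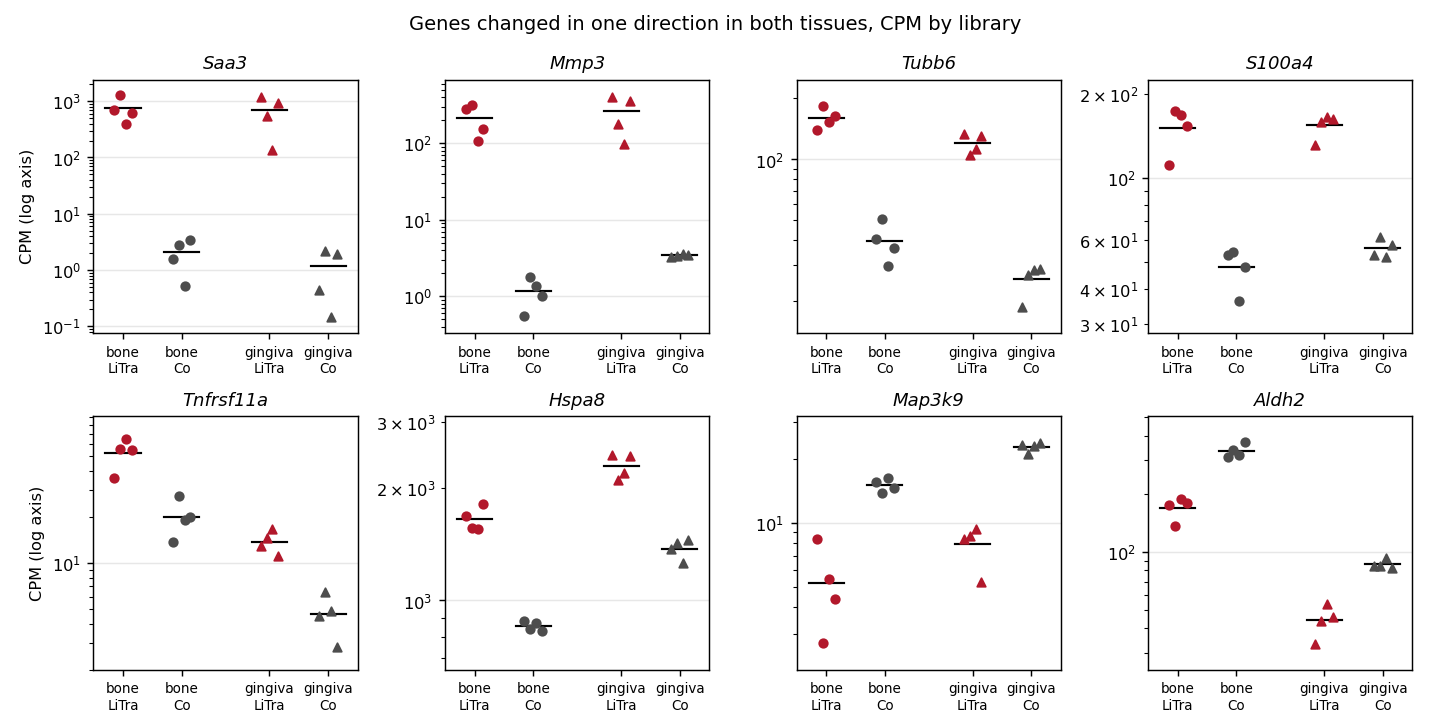
CPM on a log axis for 8 genes in each library, bone LiTra and Co on the left of a panel and gingiva LiTra and Co on the right, with a bar at the group mean. The first 6 genes are higher and Map3k9 and Aldh2 lower in LiTra libraries of both tissues, with no overlap between LiTra and Co libraries. Tubb6, S100a4, Tnfrsf11a, Map3k9 and Aldh2 were named by a rule that required this lack of overlap.

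Saa3, Mmp3 and Il6 rose steeply in both tissues. Saa3 (ENSMUSG00000040026.9), a serum amyloid made locally at sites of inflammation, had 710, 1271, 396 and 623 CPM in LiTra bone and 1.6, 2.79, 0.518 and 3.38 CPM in Co bone. In gingiva it had 1196, 554, 136 and 911 CPM in LiTra libraries and 0.437, 2.16, 0.144 and 1.96 CPM in Co libraries. Its effects were 8.48 ± 0.65 in bone (adjusted p = 1.8e-05) and 9.22 ± 1.30 in gingiva (adjusted p = 0.00047). Mmp3, the stromelysin that cleaves proteoglycans and activates other proteases, had 282, 318, 106 and 153 CPM in LiTra bone, against 0.55, 1.8, 1.37 and 1 CPM in Co bone. LiTra gingiva had 408, 180, 97.9 and 361 CPM of Mmp3 and Co gingiva 3.28, 3.35, 3.55 and 3.47 CPM. LiTra 3 was the lowest of its group for both genes in both tissues, and no LiTra library overlapped a Co library.

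Il6, the cytokine that drives acute-phase genes, had 27.9, 26, 4.3 and 16.5 CPM in LiTra bone and 0.142, 0.231, 0.666 and 0.183 CPM in Co bone. In LiTra gingiva it had 20.6, 13.2, 0.971 and 21.1 CPM, and in Co gingiva 0 to 0.0971 CPM. The effects were 5.99 ± 0.92 in bone and 7.62 ± 1.61 in gingiva. The gingiva call of Il6 was lost with limma-voom and in a test against a fold change of 2. For Saa3, Mmp3 and Il6 the difference of effects did not pass (-0.73 ± 1.14, 1.26 ± 1.10 and -1.59 ± 1.68), and its 95% intervals reached from -3.07 to 1.60, from -0.99 to 3.51 and from -5.05 to 1.87. A difference in the size of the effects was not detected, intervals this wide do not show equal sizes, and the 3 genes did not meet the criterion for moving alike. Of 13 genes of the interleukin 6 family and its receptors, 5 rose in bone and 0 fell, 7 of 12 rose in gingiva and 0 fell, and no difference was called by edgeR or without any 1 library (limma-voom called 4).

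The interleukin 1 receptor gene Il1r1 moved alike, at 1.16 ± 0.20 in bone and 1.40 ± 0.23 in gingiva, as did Tnfaip3, a brake on NF-kB signalling (1.15 ± 0.22 and 1.10 ± 0.32), and Tnfaip6, a hyaluronan-binding protein (1.27 ± 0.31 and 1.34 ± 0.24). Ptges, which makes prostaglandin E2, did so as well (1.04 ± 0.32 and 1.05 ± 0.21). Il1b itself rose by 3.89 ± 0.66 in bone and 2.79 ± 0.85 in gingiva, with a difference of 1.09 ± 1.06 that did not pass. Bdkrb1, the inducible bradykinin receptor, rose in both as well (4.09 ± 0.58 and 2.58 ± 0.33), and the difference did not pass (1.52 ± 0.62, adjusted p = 0.111). Tnfrsf1b, a receptor for TNF, rose in gingiva (2.11 ± 0.42) with 0.16 ± 0.26 in bone, and the difference was called (-1.93 ± 0.52, adjusted p = 0.0159).

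Osteoclast genes rose in both tissues, and several rose further in gingiva. Of 20 osteoclast genes, 15 rose and 1 fell in bone, and 16 rose and 0 fell in gingiva, with median effects of 1.09 in bone and 2.03 in gingiva. The difference was called for 8, 2 more positive in bone and 6 more positive in gingiva, and the second count was 3 without bone LiTra 1, bone Co 2 or gingiva LiTra 3 and 10 with DESeq2 or limma-voom. Ctsk, the collagen-degrading protease of osteoclasts, had 2995, 4163, 4816 and 3783 CPM in LiTra bone and 1020, 1637, 847 and 1039 CPM in Co bone. LiTra gingiva had 477, 739, 723 and 418 CPM and Co gingiva 85.7, 101, 118 and 82.4 CPM. The effects were 1.79 ± 0.30 in bone and 2.61 ± 0.40 in gingiva, and their difference of -0.80 ± 0.50 did not pass (adjusted p = 0.331). Acp5, the tartrate-resistant acid phosphatase, likewise rose in both (1.15 ± 0.30 and 2.51 ± 0.38; difference adjusted p = 0.0688).

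Tnfrsf11a, which encodes RANK, the receptor for RANKL on osteoclast precursors, moved alike. It had 35.9, 55.3, 64.6 and 54.3 CPM in LiTra bone and 13.6, 27.4, 19.1 and 20 CPM in Co bone. Gingival levels were 12.8, 14.6, 16.6 and 11 CPM in LiTra libraries and 4.47, 6.44, 4.82 and 2.8 CPM in Co libraries. Its effects were 1.39 ± 0.24 in bone and 1.57 ± 0.26 in gingiva. Nfatc1, the master transcription factor of osteoclasts, was alike at a lower size (0.72 ± 0.19 and 0.90 ± 0.31).

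The ligand gene Tnfsf11, encoding RANKL, was called in both tissues, with a larger fold change in gingiva, where Co levels were low. Its mean went from 9.97 CPM in Co to 31.2 CPM in LiTra bone, and from 0.602 to 16.7 CPM in gingiva. It had 25, 39.9, 24.2 and 35.6 CPM in LiTra bone and 7.83, 15.1, 8.89 and 8.11 CPM in Co bone. LiTra gingiva had 23.1, 18.4, 7.41 and 17.7 CPM, against 0.267, 1.03, 0.264 and 0.847 CPM in Co gingiva. The effects were 1.64 ± 0.28 in bone and 4.79 ± 0.75 in gingiva, and the difference of -3.13 ± 0.76 was called (adjusted p = 0.0085). The decoy receptor gene Tnfrsf11b, encoding osteoprotegerin, had effects of 0.81 ± 0.26 in bone (adjusted p = 0.0473) and 0.84 ± 0.32 in gingiva (adjusted p = 0.076), with a difference of -0.02 ± 0.44. Tcirg1, a subunit of the proton pump with which osteoclasts acidify bone, rose by 0.91 ± 0.20 in bone and 2.02 ± 0.19 in gingiva (difference -1.10 ± 0.28, adjusted p = 0.0115).

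Osteoclast-associated genes did not all follow this order. Src, the kinase required for the ruffled border, had 62.8, 79.9, 85.7 and 77 CPM in LiTra bone and 39.6, 49, 40.4 and 41 CPM in Co bone. In gingiva its LiTra libraries had 36.8 to 48.1 CPM and its Co libraries 35.5 to 46.5 CPM, which overlap. The difference was 0.87 ± 0.18 (adjusted p = 0.00355). Car2, a carbonic anhydrase of osteoclasts that red cell precursors also express, fell by 2.42 ± 0.43 in bone, with 0.87 ± 0.35 in gingiva (difference -3.28 ± 0.58, adjusted p = 0.0012). Haemoglobin and other red cell genes fell in the same bone libraries, and their part in the Car2 value was not tested.

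Mmp13 and Timp1 rose further in gingiva, as Tnfsf11 did, while most genes of their list had no called difference. Mmp13, the collagenase of bone and cartilage, had 5124, 6944, 4362 and 5503 CPM in LiTra bone and 933, 1602, 738 and 1001 CPM in Co bone. In LiTra gingiva it had 1280, 1390, 661 and 907 CPM, against 50.2, 50.4, 34.2 and 40.5 CPM in Co gingiva. The level was higher in bone, while the effect was larger in gingiva (2.36 ± 0.31 against 4.60 ± 0.54; difference -2.23 ± 0.59, adjusted p = 0.0138). Timp1, the inhibitor of these enzymes, rose by 2.70 ± 0.26 in bone and 4.51 ± 0.57 in gingiva (difference -1.80 ± 0.59, adjusted p = 0.0457). Of 18 metalloproteinase and inhibitor genes, 7 rose and 1 fell in bone, 9 rose and 1 fell in gingiva, and 4 differences were called, all more positive in gingiva. Of the 7, 4 were counted without bone LiTra 2, Co 3 or Co 4. The count of differences was 1 without bone LiTra 1, gingiva Co 1 or gingiva Co 4, and 2 without any of bone LiTra 2, 3 and 4, Co 2 or Co 4 and gingiva LiTra 1. Mmp8, the neutrophil collagenase, was the gene that fell in bone (-1.59), with 1.93 and no call in gingiva, and its list had 0 falls in bone without LiTra 1, 2 or 4 or Co 1, 2 or 4.

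Of 21 collagen and matrix assembly genes, 11 rose in bone, 11 rose in gingiva and 0 fell in either, and the one called difference was Fbn2 (-1.34 ± 0.39), a microfibril gene that passed in neither tissue alone. Col5a2 and Col6a3, which encode chains of collagens V and VI, moved alike (0.94 ± 0.30 and 1.01 ± 0.29 in bone, 1.10 ± 0.23 and 0.89 ± 0.27 in gingiva). Col1a1 and Postn, the main bone collagen gene and a ligament matrix gene, passed in neither tissue (-0.02 ± 0.37 and 0.43 ± 0.39 in bone, -0.87 ± 0.44 and 0.21 ± 0.24 in gingiva). The bone count was 7 without any of LiTra 2, 3 and 4, Co 1 or Co 3.

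Of the osteoblast and osteocyte list, 3 of 20 rose and 2 fell in bone, and 2 of 19 rose and 9 fell in gingiva. The difference was called for 5, 4 more positive in bone and 1 more positive in gingiva. These counts were unstable: 1 to 8 differences were more positive in bone when 1 library was left out, with 1 without bone LiTra 2 or Co 3 or gingiva LiTra 1, LiTra 4 or Co 3, 2 without bone Co 4 or gingiva LiTra 2 or Co 1, 7 without gingiva Co 4 and 8 without gingiva LiTra 3. The 9 falls in gingiva became 5 without Co 3, and the 2 falls in bone became 0 without any library but LiTra 2 and Co 3. Bglap fell in both, with 575, 937, 550 and 380 CPM in LiTra bone and 1371, 1637, 973 and 1319 CPM in Co bone. LiTra gingiva had 12.3, 12.7, 23.2 and 1.74 CPM, against 229, 90.9, 124 and 93.3 CPM in Co gingiva. The effects were -1.12 ± 0.31 and -3.42 ± 0.64, and the difference of 2.31 ± 0.72 (adjusted p = 0.0334) was lost without the gland-rich libraries. It was also lost without any of bone LiTra 2, Co 3 or Co 4 and gingiva LiTra 1, LiTra 2 or Co 1, and the bone call was lost in 6 of 8 fits that left out 1 library. Bglap has near-identical copies that can share its reads. Sp7, encoding the osteoblast factor osterix, fell in gingiva (-1.70 ± 0.44) with 0.11 ± 0.27 in bone (difference 1.82 ± 0.54, adjusted p = 0.0263). It had 3.94 to 14.1 CPM in LiTra gingiva and 16.2 to 41.4 CPM in Co gingiva. The part of neighbouring bone tissue in the gingival values of Bglap, Sp7, Ctsk, Acp5, Mmp13 and Spp1 was not tested.

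Spp1, the osteopontin gene of osteoblasts, osteoclasts and macrophages, went the other way. It had 3751, 5073, 5253 and 4271 CPM in LiTra bone and 2021, 3172, 1874 and 2180 CPM in Co bone, against 530, 891, 797 and 477 CPM in LiTra gingiva and 43.1, 14.6, 47.2 and 38.2 CPM in Co gingiva. Effects of 0.99 ± 0.31 and 4.23 ± 0.79 gave a difference of -3.23 ± 0.83 (adjusted p = 0.0113). The bone call of Spp1 was lost in 6 of 8 fits that left out 1 bone library, while the call of the difference held in all 16. Of 18 Wnt and BMP genes, 4 had a called difference, all more positive in bone, and this was 2 without bone LiTra 2. Dkk2, Sfrp2, Wnt7b and Bmp2 had differences of 1.62 ± 0.41, 1.85 ± 0.55, 1.95 ± 0.56 and 1.56 ± 0.46. Wnt7b and Bmp2 fell in gingiva, Dkk2, a Wnt antagonist, rose in bone, and Sfrp2 passed in neither tissue alone.

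**Figure D3:**
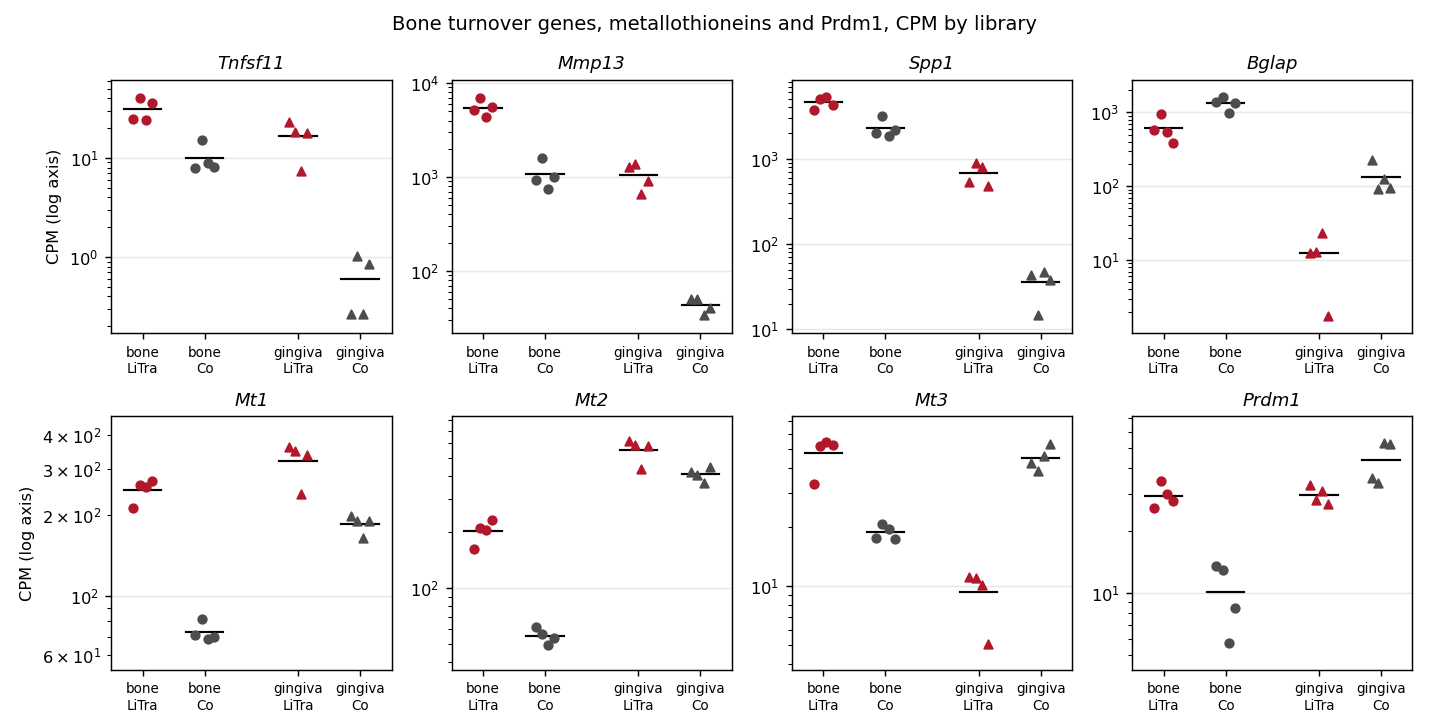
CPM on a log axis for 8 genes in each library, bone LiTra and Co on the left of a panel and gingiva LiTra and Co on the right, with a bar at the group mean. Tnfsf11, Mmp13 and Spp1 rise by a larger fold in gingiva, and Bglap falls by a larger fold there. Mt3 and Prdm1 are higher in LiTra bone and lower in LiTra gingiva.

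S100a8 and 8 other mature neutrophil genes rose in gingiva. S100a8, the calprotectin subunit that fills neutrophils, had 411, 916, 1554 and 1259 CPM in LiTra bone and 2607, 2938, 2244 and 2150 CPM in Co bone. LiTra gingiva had 3280, 1483, 896 and 3582 CPM, against 46.5, 314, 146 and 146 CPM in Co gingiva. The groups did not overlap in either tissue and stood in opposite order. Of all tested genes, 13.9% in bone had every LiTra library below every Co library, and 14.5% in gingiva had every one above. The bone effect of -1.26 ± 0.52 did not pass (adjusted p = 0.113), the gingiva effect was 3.82 ± 0.79, and the difference of -5.08 ± 0.97 was called (adjusted p = 0.00197). Of 16 mature neutrophil genes, 1 rose and 2 fell in bone, which became 0 and 1 when any bone library other than LiTra 3 was left out. In gingiva 9 rose, 0 fell and 7 did not pass, and 8 differences were called, all more positive in gingiva. The last count was 5 without bone LiTra 1, bone LiTra 2, gingiva LiTra 1, gingiva Co 1 or gingiva Co 4, and 14 with limma-voom. The formyl peptide receptor genes Fpr1 and Fpr2, with which neutrophils sense bacteria, had differences of -4.49 ± 0.97 and -4.82 ± 1.07.

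Genes of neutrophil precursors fell in bone, where 7 of 13 passed. In gingiva 1 of 12 was higher and 0 lower, beside 11.4% and 11.5% of all genes. The bone count was 2 without any of LiTra 1, LiTra 2, Co 2 or Co 4, and 4 without Co 1. Lyz2, the lysozyme gene of granulocytes and macrophages, was called in opposite directions. It had 589, 784, 1103 and 1142 CPM in LiTra bone and 1898, 2134, 1664 and 1776 CPM in Co bone, against 484, 376, 614 and 528 CPM in LiTra gingiva and 94.8, 123, 122 and 94.1 CPM in Co gingiva. The effects were -1.05 ± 0.30 and 2.21 ± 0.42, with a difference of -3.24 ± 0.54 (adjusted p = 0.000869). The bone call of Lyz2 was lost in 5 of 8 fits that left out 1 bone library.

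Aqp9, a water and glycerol channel of neutrophils, was also called in opposite directions. LiTra bone had 2.53, 2.39, 2.52 and 3.45 CPM and Co bone 16.9, 13.6, 7.22 and 15.5 CPM. LiTra gingiva had 12.6, 7.22, 4.57 and 8.85 CPM and Co gingiva 2.23, 1.96, 1.27 and 1.03 CPM. It fell by 2.29 ± 0.44 in bone and rose by 2.35 ± 0.39 in gingiva, and the difference of -4.64 ± 0.62 (adjusted p = 0.000142) was kept in every alternative, library totals included. Among acute-phase genes that neutrophils also store, Orm1 was opposite (-1.43 ± 0.39 in bone, 3.76 ± 1.08 in gingiva), and Lcn2 and Hp rose in gingiva and did not pass in bone, with differences of -4.20 ± 1.06 and -3.58 ± 0.92. Saa3 above, from the same list, rose in both.

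Among 10 genes of the marrow niche, 3 were called in opposite directions. Cxcl12 had 161, 187, 285 and 254 CPM in LiTra bone and 733, 775, 562 and 801 CPM in Co bone. LiTra gingiva had 95.3, 101, 94.5 and 113 CPM, against 42.6, 46.5, 51.9 and 38.1 CPM in Co gingiva. The effects were -1.69 ± 0.30 and 1.17 ± 0.35, with a difference of -2.86 ± 0.49 (adjusted p = 0.00108). Its gingiva call was lost without LiTra 4, Co 1 or Co 4. Its receptor gene Cxcr4 had 41.5, 48.1, 53.5 and 60.1 CPM in LiTra bone and 120, 129, 86.3 and 103 CPM in Co bone, against 44.9, 24.4, 39.4 and 34.2 CPM in LiTra gingiva and 5.44, 13.9, 9.18 and 8.25 CPM in Co gingiva. Its effects were -1.11 ± 0.36 and 1.96 ± 0.47, and the difference was -3.06 ± 0.63 (adjusted p = 0.00305).

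Vcam1, an adhesion molecule of stroma and endothelium, had 68.7, 85, 102 and 100 CPM in LiTra bone and 160, 148, 134 and 170 CPM in Co bone. LiTra gingiva had 26.7, 25, 30.9 and 29.8 CPM and Co gingiva 10.6, 8.24, 10.2 and 9.26 CPM. The effects were -0.78 ± 0.25 and 1.55 ± 0.25, with a difference of -2.32 ± 0.37 (adjusted p = 0.000633). These were 3 of the 10 marrow niche genes, and the other 7 had no called difference. The bone calls of Cxcr4 and Vcam1, with adjusted p of 0.0478 and 0.048, were lost in all 8 fits that left out 1 bone library, while their differences kept their calls in all 16 such fits.

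**Figure D4:**
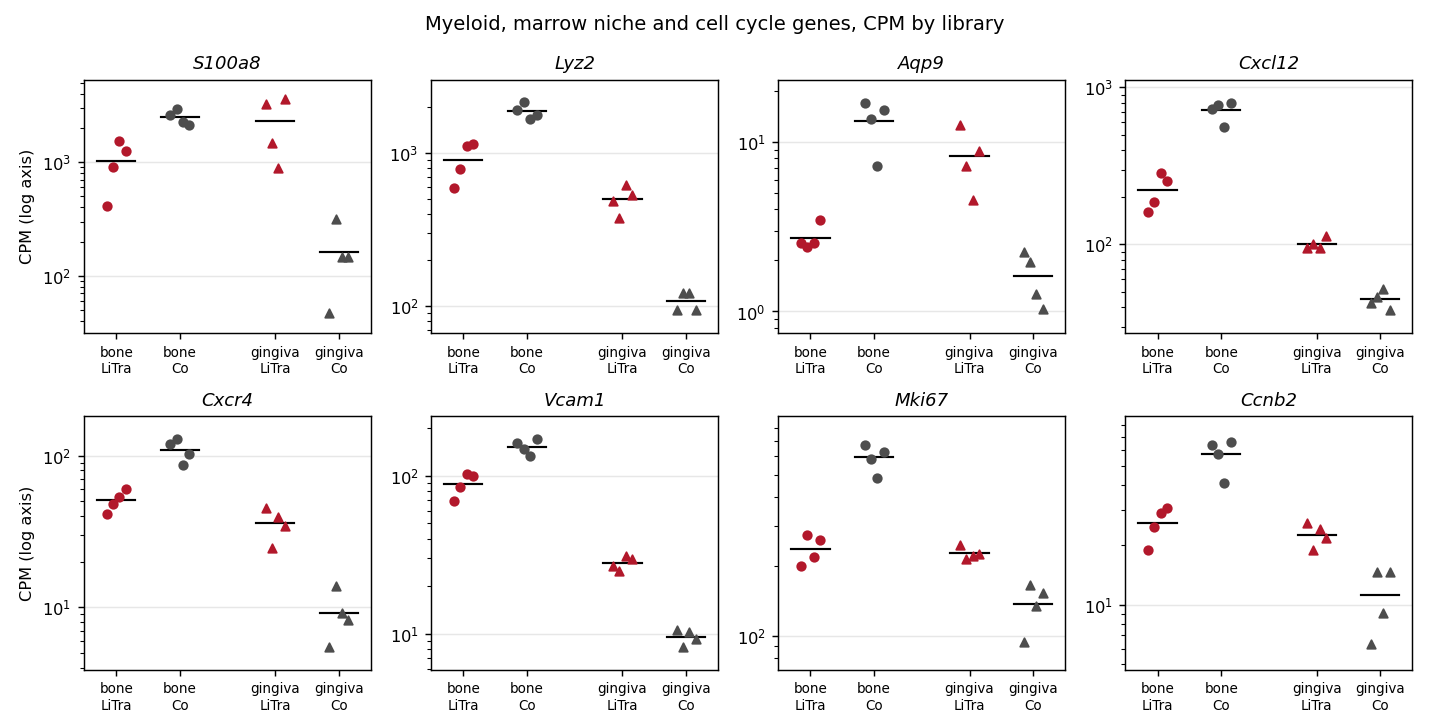
CPM on a log axis for 8 genes in each library, bone LiTra and Co on the left of a panel and gingiva LiTra and Co on the right, with a bar at the group mean. In every panel the LiTra libraries lie below the Co libraries in bone and above them in gingiva, without overlap. Of all tested genes, 13.9% had such an order in bone and 14.5% in gingiva. Most of the genes shown were named by their difference of effects, and Ccnb2 was chosen after its values were seen.

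Most proliferation genes rose in gingiva. Of 20 cell cycle genes, 16 rose and 0 fell in gingiva, 0 rose and 6 fell in bone, and 18 of the 20 had a called difference, all more positive in gingiva. The median effects were -0.74 in bone and 0.90 in gingiva. Mki67, the Ki-67 proliferation marker, had 200, 274, 220 and 259 CPM in LiTra bone and 675, 587, 483 and 628 CPM in Co bone. LiTra gingiva had 248, 215, 222 and 227 CPM, against 94.3, 166, 134 and 154 CPM in Co gingiva. The effects were -1.32 ± 0.29 and 0.73 ± 0.18, with a difference of -2.04 ± 0.36 (adjusted p = 0.0012).

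Ccnb2, a mitotic cyclin named here after its values were seen, had 18.9, 24.5, 29 and 30.7 CPM in LiTra bone and 63.7, 57.4, 40.8 and 65.5 CPM in Co bone. Gingival levels were 25.6, 18.8, 23.9 and 21.5 CPM in LiTra libraries and 6.34, 14.5, 9.11 and 14.6 CPM in Co libraries. Mki67, Ccnb2, Rrm2 and Kif11 were the 4 members called in opposite directions. The bone call of Kif11 was lost in 6 of 8 fits that left out 1 library, and the gingiva call of Rrm2 in 5 of 8. The Ccnb2 call was lost in bone without LiTra 2 or Co 4 and in gingiva without LiTra 1, Co 1 or Co 3. The bone count of the cell cycle list was 2 without LiTra 2 or Co 4, 15 without the gland-rich libraries and 16 with limma-voom. In bone the fall stood beside lower sums of red cell precursor, neutrophil precursor and B cell genes, which come from dividing marrow cells, and their part in it was not tested.

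The promoters of Mki67, Ccnb2 and Birc5, an inhibitor of apoptosis that acts in mitosis, are shown because cell cycle genes moved together in gingiva. Each window runs from 250 bases before to 50 bases after the gene's start in RefSeq, build GRCm38.p6, which is not the build of the counts, and capitals mark CCAAT and TTTGAA or TTCGAA on either strand. These letters are those of the CCAAT box, bound by NF-Y, and of the CHR element of cell cycle genes. Mki67 lies on the minus strand at chr7:135716330-135716629, Ccnb2 on the minus strand at chr9:70421505-70421804 and Birc5 on the plus strand at chr11:117848987-117849286.
Mki67: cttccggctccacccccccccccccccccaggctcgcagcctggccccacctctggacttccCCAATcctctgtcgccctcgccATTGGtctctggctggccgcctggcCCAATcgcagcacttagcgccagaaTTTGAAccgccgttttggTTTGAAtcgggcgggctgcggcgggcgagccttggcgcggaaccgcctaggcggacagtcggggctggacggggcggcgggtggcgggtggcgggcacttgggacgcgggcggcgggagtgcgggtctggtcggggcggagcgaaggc
Ccnb2: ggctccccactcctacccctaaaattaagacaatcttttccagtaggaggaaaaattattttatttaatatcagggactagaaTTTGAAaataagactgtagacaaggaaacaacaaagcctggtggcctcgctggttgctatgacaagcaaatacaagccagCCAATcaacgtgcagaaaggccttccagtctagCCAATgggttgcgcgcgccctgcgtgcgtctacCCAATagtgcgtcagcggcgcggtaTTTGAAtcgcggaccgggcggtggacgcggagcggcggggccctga
Birc5: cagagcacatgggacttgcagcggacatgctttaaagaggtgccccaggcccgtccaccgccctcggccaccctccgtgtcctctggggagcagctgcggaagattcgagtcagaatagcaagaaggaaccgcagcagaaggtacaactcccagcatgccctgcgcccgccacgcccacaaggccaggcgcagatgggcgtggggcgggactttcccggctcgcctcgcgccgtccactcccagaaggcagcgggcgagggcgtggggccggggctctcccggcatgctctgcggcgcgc
The windows of Mki67 and Ccnb2 each hold 3 matches to CCAAT and 2 to TTTGAA or TTCGAA, and the motifs did not overlap, while the window of Birc5 holds neither. Of the 16 cell cycle genes with a window, 14 held CCAAT (87.5%) and 11 held TTTGAA or TTCGAA (68.8%), against 37.9% and 19.4% of 27025 promoters of the same length. Such a match is a run of letters and not a measured binding site.

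Red cell and lymphocyte genes fell in bone. Of 15 erythroid genes, 14 fell in bone and 0 rose, and the same counts were found without each single library, while 0 of 14 passed in gingiva. Hbb-bs, a beta-globin gene, had 1941, 1509, 581 and 1210 CPM in LiTra bone and 11650, 7887, 7318 and 14787 CPM in Co bone. LiTra gingiva had 94.5 to 171 CPM and Co gingiva 111 to 302 CPM, which overlap. It fell by 2.99 ± 0.46 in bone, with -0.59 ± 0.50 in gingiva, and the difference of -2.39 ± 0.69 (adjusted p = 0.0236) was lost without bone LiTra 3, bone Co 4 or gingiva LiTra 4. Globin genes are near-identical copies that can share reads. The called differences among the 15 were those of 4 globin genes, and the count was 0 without bone LiTra 3, bone Co 4 or gingiva LiTra 4 and 1 without gingiva Co 1 or Co 2. The Alas2 difference, of the first enzyme of haem synthesis in red cells, passed in 6 of 29 alternatives.

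Of the B cell genes, 12 of 19 fell in bone and 5 differences were called. That count was 2 without any of bone LiTra 2, Co 1 or Co 2 and gingiva LiTra 4 or Co 1, and 3 without any of bone LiTra 1, 3 and 4 or gingiva Co 4. In gingiva 2 of 13 fell, beside 11.5% of all genes, and 1 without LiTra 1 and 0 without LiTra 2, 3 or 4, Co 3 or Co 4. Cd22, a B cell lectin that restrains receptor signalling, had 4.02, 3.93, 5.72 and 4.44 CPM in LiTra bone and 45.8, 45.3, 31.7 and 51.8 CPM in Co bone. Its gingiva levels were under 1 CPM in all 8 libraries. The effects were -3.27 ± 0.47 in bone and -0.13 ± 0.79 in gingiva, with a difference of -3.13 ± 0.91 (adjusted p = 0.0244) that was lost without gingiva LiTra 4. Of 20 T and NK cell genes, 10 fell in bone, with Lck, the kinase of the T cell receptor, at -2.17 ± 0.37. In gingiva 1 of 19 rose and 2 fell, beside 11.4% and 11.5% of all genes. The gene that rose was Il7r, the interleukin 7 receptor of lymphocytes, which was opposite (-1.52 ± 0.38 in bone, 1.61 ± 0.50 in gingiva), and its gingiva call held only without LiTra 2 among the fits that left out 1 library.

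A few genes associated with plasma cells moved against the fall of B cell genes. Prdm1, encoding the repressor BLIMP1 of plasma cells, osteoclasts and keratinocytes, had 25.6, 34.6, 30.1 and 27.8 CPM in LiTra bone and 13.5, 12.9, 5.7 and 8.43 CPM in Co bone. Gingival levels were 33.4, 28, 31 and 26.9 CPM in LiTra libraries and 35.8, 33.9, 53.2 and 52.4 CPM in Co libraries. The effects were 1.54 ± 0.27 and -0.55 ± 0.17, and the difference was 2.1 ± 0.33 (adjusted p = 0.000531). The gingiva call was lost without LiTra 2, LiTra 4, Co 3 or Co 4. Sdc1 and Fkbp11, a proteoglycan and an endoplasmic reticulum chaperone, rose in bone (1.81 ± 0.20 and 1.13 ± 0.26) with called differences of 1.60 ± 0.24 and 1.55 ± 0.38. Irf4, a transcription factor that plasma cells require, fell in bone (-1.95 ± 0.42), so the plasma cell list had 3 members up and 3 down.

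Metallothioneins, small cysteine-rich proteins that bind zinc and copper, split by gene and by tissue. Mt1 had 213, 260, 256 and 270 CPM in LiTra bone and 71.3, 81.9, 68.7 and 70 CPM in Co bone. LiTra gingiva had 361, 349, 240 and 336 CPM, against 199, 190, 164 and 191 CPM in Co gingiva. Mt2 had 163, 210, 205 and 232 CPM in LiTra bone and 61.8, 56.9, 49.5 and 53.8 CPM in Co bone, and in gingiva 615, 591, 435 and 577 CPM in LiTra libraries, against 421, 407, 365 and 446 CPM in Co libraries. Both rose in both tissues and further in bone, with effects of 1.77 ± 0.19 and 1.87 ± 0.17 in bone and 0.79 ± 0.17 and 0.44 ± 0.14 in gingiva. Their differences were 1.0 ± 0.25 (adjusted p = 0.0109) and 1.44 ± 0.23 (adjusted p = 0.000702). The gingiva call of Mt2, whose LiTra and Co libraries overlapped there, was lost in 6 of 8 fits that left out 1 library.

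Mt3, best known from the brain, moved in opposite directions. LiTra bone had 33.1, 52.3, 54.5 and 52.8 CPM and Co bone 17.6, 20.9, 19.7 and 17.4 CPM. LiTra gingiva had 11.1, 11, 10.2 and 5.07 CPM and Co gingiva 42.7, 38.6, 46.1 and 53.1 CPM. Its effects were 1.35 ± 0.30 in bone and -2.27 ± 0.29 in gingiva, and the difference of 3.64 ± 0.43 (adjusted p = 3.53e-05) was kept in every alternative. Mt4, the form of stratified epithelium, fell in gingiva (-1.80 ± 0.28) and had -1.62 ± 1.90 in bone.

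The promoter windows of Mt1, Mt2 and Mt3 are shown because these neighbours on chromosome 8 differed in direction in gingiva. Capitals mark TGCACNC or TGCGCNC on either strand, the core letters of the metal response element bound by MTF1, in RefSeq windows of the same build and length. All 3 are on the plus strand, Mt1 at chr8:94178839-94179138, Mt2 at chr8:94172368-94172667 and Mt3 at chr8:94152357-94152656.
Mt1: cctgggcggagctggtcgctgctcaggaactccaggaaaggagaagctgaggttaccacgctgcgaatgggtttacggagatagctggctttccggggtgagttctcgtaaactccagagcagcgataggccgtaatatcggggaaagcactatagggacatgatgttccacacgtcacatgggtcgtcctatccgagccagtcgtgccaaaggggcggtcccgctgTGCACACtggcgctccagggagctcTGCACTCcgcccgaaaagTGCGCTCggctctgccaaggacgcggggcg
Mt2: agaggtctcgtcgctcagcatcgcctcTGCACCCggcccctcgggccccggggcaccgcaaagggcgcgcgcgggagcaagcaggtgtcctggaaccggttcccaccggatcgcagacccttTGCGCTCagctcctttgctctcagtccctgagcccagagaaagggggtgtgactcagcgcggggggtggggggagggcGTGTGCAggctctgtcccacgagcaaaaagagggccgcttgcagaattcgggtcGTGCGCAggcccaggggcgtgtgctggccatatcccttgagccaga
Mt3: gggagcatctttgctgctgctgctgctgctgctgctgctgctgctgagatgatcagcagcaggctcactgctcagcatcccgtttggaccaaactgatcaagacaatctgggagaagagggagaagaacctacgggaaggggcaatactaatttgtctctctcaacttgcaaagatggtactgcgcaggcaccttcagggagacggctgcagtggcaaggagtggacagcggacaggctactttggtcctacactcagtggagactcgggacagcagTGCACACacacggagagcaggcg
The windows hold 3, 4 and 1 matches in that order, and the window of Mt4, which fell in gingiva, holds 1. At least 1 match occurs in 25.6% and at least 3 in 2.0% of all 27025 promoters. A match is a run of letters and not a measured binding site. Whether the number of matches bears on the direction of a gene was not tested.

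The 10 largest negative differences that met the rule for naming were mostly of genes near 0 in one group. F10, the gene of coagulation factor X, had 13, 16, 16 and 18.6 CPM in LiTra bone and 19.9, 26.4, 16.5 and 21.4 CPM in Co bone, which overlap, against 8.01, 5.77, 8.38 and 8.46 CPM in LiTra gingiva and 0.0971, 0, 0.168 and 0.0794 CPM in Co gingiva. Its difference was -6.82 ± 1.40 (adjusted p = 0.0031). Chil4, a chitinase-like protein of macrophages and epithelium, had 0.813 to 1.89 CPM in LiTra bone and 1.22 to 6.45 CPM in Co bone, against 145 to 2725 CPM in LiTra gingiva and 38.6 to 88.4 CPM in Co gingiva (difference -5.27 ± 1.29, adjusted p = 0.00864). Fcmr, the Fc receptor for IgM on B cells, fell in bone (-3.76 ± 0.63) with 1.55 ± 0.82 in gingiva (difference -5.30 ± 1.05, adjusted p = 0.00239). Apoc2, an apolipoprotein, rose in gingiva (5.66 ± 1.57), where 3 of the 4 Co libraries were at 0, with 0.23 ± 0.44 in bone.

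No fold is given where a group was at 0 in all 4 libraries. F7 (coagulation factor VII) and Prss46 (a serine protease) were at 0 in Co gingiva and had 0.912 to 6.61 CPM and 0.802 to 1.77 CPM in LiTra gingiva. Gfi1b, a factor of red cell and platelet precursors, and Mcpt8, a protease of basophils, fell in bone (-2.82 ± 0.48 and -1.98 ± 0.51) and were under 1 CPM in all gingiva libraries. Cfhr2 was at 0 in Co gingiva as well, with 0.0947 to 1.62 CPM in LiTra gingiva. Unc93a2 was at 0 in LiTra bone, against 0.16 to 0.889 CPM in Co bone.

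Among other opposite genes, Cgref1, a secreted calcium-binding protein, was up in bone and down in gingiva. It had 51.1, 86.2, 73.5 and 88.2 CPM in LiTra bone and 22.5, 33.2, 27 and 21.6 CPM in Co bone, against 9.2, 8.74, 11.2 and 7.7 CPM in LiTra gingiva and 115, 57.6, 34.6 and 12.2 CPM in Co gingiva. The effects were 1.52 ± 0.23 and -2.57 ± 0.68, with a difference of 4.10 ± 0.75 (adjusted p = 0.00134), and the gingiva call was lost without Co 1. Serpinb8, a protease inhibitor, Tmem45a, a membrane protein, and Col8a2, a chain of collagen VIII, were also up in bone and down in gingiva (1.41 ± 0.19, 0.99 ± 0.19 and 0.96 ± 0.19 in bone, -0.79 ± 0.27, -1.33 ± 0.28 and -1.17 ± 0.39 in gingiva). On the other side, Stom, a membrane scaffold protein, and Rab44, a small GTPase of granule-bearing cells, were down in bone and up in gingiva (-1.26 ± 0.33 and -1.60 ± 0.50 in bone, 2.32 ± 0.33 and 2.16 ± 0.65 in gingiva).

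Of 18 monocyte and macrophage genes, 6 rose and 1 fell in bone, 13 rose and 0 fell in gingiva, and 6 differences were called, all more positive in gingiva. That count was 2 without bone LiTra 3, gingiva LiTra 3 or gingiva Co 1, and 3 without any of bone LiTra 1, LiTra 2 or Co 4 and gingiva LiTra 4. Csf1r, the receptor for M-CSF, and Msr1, a scavenger receptor, rose in both and further in gingiva (0.88 ± 0.23 and 1.55 ± 0.17 in bone, 1.94 ± 0.25 and 3.40 ± 0.53 in gingiva). Ccr2, the receptor that draws monocytes from marrow, rose in gingiva (1.89 ± 0.34) with -0.45 ± 0.38 in bone (difference -2.33 ± 0.54, adjusted p = 0.00655). Of 16 endothelial genes, 4 rose and 2 fell in bone and 11 rose and 1 fell in gingiva. The falls did not hold, with at most 1 in bone when any 1 library was left out and 0 in gingiva without LiTra 1, LiTra 4, Co 1, Co 3 or Co 4. Emcn, a sialomucin of capillaries and veins, moved alike (0.92 ± 0.21 and 1.05 ± 0.14), and Angpt2, which loosens vessel walls, rose in gingiva (1.92 ± 0.30) with 0.06 ± 0.21 in bone (difference -1.86 ± 0.37, adjusted p = 0.00273).

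Of 19 immediate early and mechanically induced genes, 6 rose in bone and 0 fell. In gingiva 0 rose and 1 fell, beside 11.4% and 11.5% of all genes. The difference was called for 2, Fosl1 and Jun, beside 12.3% of all genes. That count was 0 without bone LiTra 1, LiTra 2 or Co 1. It was also 0 without gingiva LiTra 1, LiTra 2, LiTra 4, Co 3 or Co 4. It was 1 without any other library but gingiva Co 2. Junb, a subunit of AP-1, rose in bone (1.09 ± 0.15) with 0.26 ± 0.25 in gingiva, and its difference did not pass (0.84 ± 0.32, adjusted p = 0.0809). Jun passed in neither tissue but its difference was called (1.03 ± 0.33, adjusted p = 0.0385). In the circadian clock list 3 of 15 fell in bone and 9 of 15 fell in gingiva, and 1 rose in each. The 3 falls in bone became 1 without any of LiTra 1, 2 and 4, Co 1 or Co 4, and the 1 rise in gingiva held only without LiTra 4 or Co 2 among such fits. Hlf, an output gene of the clock, fell alike (-0.86 ± 0.27 and -1.04 ± 0.16). Clock itself had 69.8, 77.1, 62 and 62.8 CPM in LiTra bone and 47.8, 35, 40.6 and 28.6 CPM in Co bone, and overlapping levels of 134 to 154 CPM in LiTra gingiva and 146 to 170 CPM in Co gingiva. It rose in bone by 0.84 ± 0.19, with a difference of 0.93 ± 0.23 (adjusted p = 0.00974). The labels give no hour of sampling, so a shift in time of day between groups was not tested.

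Epithelial genes changed in gingiva. Of 21 keratinocyte genes, 5 rose and 9 fell there (5 fell without LiTra 4). Krt14 was among those that rose (0.78 ± 0.14) and Krt76, another keratin, among those that fell (-1.74 ± 0.47). Summed over the list, levels were 85200 to 98500 CPM in LiTra gingiva and 109000 to 134000 CPM in Co gingiva. In bone 0 of 20 were called by edgeR, DESeq2 or limma-voom, and the difference was called for 0 by edgeR and DESeq2 and for 2 by limma-voom, and the Krt14 effect of -0.16 ± 1.55 rested on Co 1. Without bone Co 1, 8 keratinocyte genes were called higher in bone and 11 differences were called. In gingiva 8 of 17 muscle genes and 4 of 18 gland genes fell. The muscle count was 4 without gingiva LiTra 1, 1 without LiTra 4, 2 without any of LiTra 2, LiTra 3, Co 1, Co 3 or Co 4, and 11 without Co 2. The muscle list took 0.0153 to 0.0626% of the counts in LiTra gingiva and 0.0202 to 0.434% in Co gingiva. Among the largest positive differences that met the rule for naming, Lman1l had 0.82 to 2.39 CPM in LiTra bone and 0.183 to 0.444 CPM in Co bone. In gingiva it had 0.298 to 1.47 CPM in LiTra libraries and 0.238 to 124 CPM in Co libraries. Gland genes took 0.0019 to 0.0288% of the counts in LiTra gingiva and 0.0112 to 0.504% in Co gingiva, lowest in Co 4 where Lman1l was also lowest. Cldn2, Cldn10 and Olfm4 had the same lowest library, with 0.952, 0.635 and 0 CPM in Co 4 against 34.7 to 112, 13.8 to 40.6 and 50.4 to 60.9 CPM in the other 3 Co libraries. The call of the difference was lost in 14 of 16 fits that left out 1 library for Olfm4, in 10 of 16 for Cldn2 and in 0 of 16 for Cldn10 and Lman1l. The part of neighbouring gland tissue in these values was not tested.

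**Figure D5:**
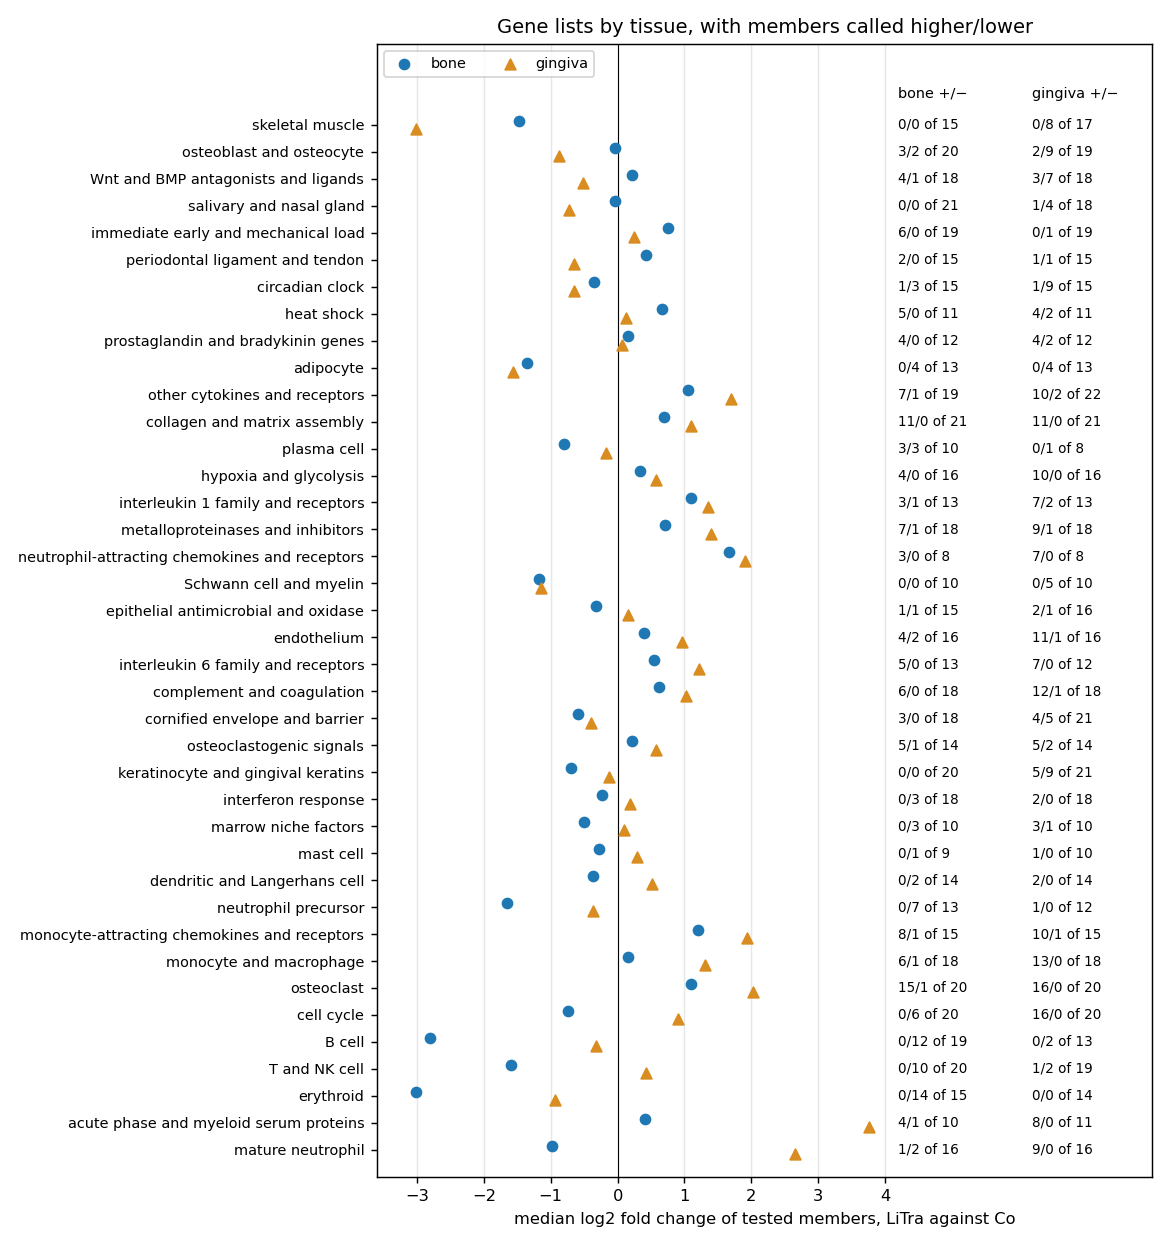
Median log2 fold change of LiTra against Co over the tested members of 39 gene lists, with bone as circles above gingiva as triangles, ordered from lists more positive in bone to lists more positive in gingiva. The columns on the right count members called higher and lower, from 14 of 15 erythroid genes lower in bone to 9 of 16 mature neutrophil genes higher in gingiva.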

How the data were processed

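The authors deposited a table of gene counts for each tissue, and the values used here are their estimated counts. Per the submitters' processing notes, Trimmomatic 0.39, FastQC 0.11.9, HISAT2 2.2.1, StringTie 2.1.7, DESeq2 1.32.0 and build GRCm39 were used, and strand handling is not given in the sources used here. The estimated counts deposited by the authors are whole numbers and were used as they stand; that they are estimates is read from the use of StringTie. Each tissue was fitted with edgeR 4.0.16 (R 4.3.3) on its 16 libraries after filterByExpr (minimum count 10, minimum total 15) and TMM scaling. The difference of effects came from a single fit of all 32 libraries in 8 groups, and p-values were adjusted by Benjamini-Hochberg over all genes tested. The script was tested on simulated data. Alternatives used DESeq2 1.42.0 and limma 3.58.1. Nothing in the labels ties each library to its own animal, so the p-values reflect variation among libraries, which may be technical. Members and gene lists were chosen with earlier results of these data known. Genes named by rule had a symbol and a mean log2 CPM of at least 1 in at least 1 tissue. The 10 largest called differences each way were taken among genes whose LiTra and Co libraries did not overlap in at least 1 tissue. The 8 genes that moved alike each way needed the mean and the lack of overlap in both tissues. Up to 8 opposite genes each way needed the mean in both tissues. Per list, up to 4 members with the smallest p of the difference and 2 members that moved alike were added. A further 17 genes were listed by name without these limits, such as Saa3, Il6, Mmp3 and Krt14. Not all of them are printed. Ccnb2, Kif11, Fosl1, Hsp90aa1 and Alas2 lay outside that rule and were chosen after their values were seen. Of 55359 gene IDs, 52083 carried a symbol. Columns lettered LiCR were read as the LiTra libraries, CR standing for composite resin.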

Additional observations from a re-analysis of the deposited data

Results flagged for a closer look

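The LiTra effect differed between bone and gingiva for 2768 genes, and 185 genes were called in opposite directions. Among the genes given by library, the tested difference, bone minus gingiva on the log2 scale, was negative for Tnfsf11 (-3.13), Mmp13 (-2.23), Spp1 (-3.23), S100a8 (-5.08), Lyz2 (-3.24), Aqp9 (-4.64), Cxcl12 (-2.86), Cxcr4 (-3.06), Vcam1 (-2.32), Mki67 (-2.04), Ccnb2 (-2.14), Hbb-bs (-2.39) and Cd22 (-3.13). It was positive for Mt1 (1.0), Mt2 (1.44), Mt3 (3.64), Prdm1 (2.1), Cgref1 (4.10), Bglap (2.31), Src (0.87) and Clock (0.93).

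In 12 of 144 groups of 4 libraries, 1 library stood apart by Dixon's ratio at its 95% critical value, where chance gives about 5%. In bone, Il6 was high in Co 3 (0.666 CPM, others 0.142 to 0.231), Tnfsf11 in Co 2 (15.1, others 7.83 to 8.89), Src in Co 2 (49.0, others 39.6 to 41.0) and Aqp9 in LiTra 4 (3.45, others 2.39 to 2.53). Mt3 was low in bone LiTra 1 (33.1, others 52.3 to 54.5) and in gingiva LiTra 4 (5.07, others 10.2 to 11.1). In gingiva, S100a4 was low in LiTra 1 (131, others 159 to 165) and Aldh2 high in Co 3 (93.3, others 82.8 to 84.5). Gland genes took 51.5% of the counts in bone LiTra 1 and 0.0288% in gingiva LiTra 2. Muscle genes took 0.0202% in gingiva Co 2, and keratinocyte genes 1.27% in bone Co 1.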

How the results depend on the processing

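With library totals as the only scaling, 12 genes were called in bone, 17 for the difference and 0 moved alike, and the cause was not tested. Without a filter on low counts 327 genes moved alike. limma-voom called 6874 genes in bone, 5118 for the difference and 1109 alike. A test against a fold change of 2 called 103 in bone, 130 in gingiva, 3 for the difference and 1 alike, and an adjusted p under 0.01 called 1614, 2052, 1032 and 155 in the same order. The tighter bound of 0.58 log2 on the difference left 209 alike. Leaving out single libraries gave 2169 to 3404 calls in bone, 3206 to 4163 in gingiva, 1965 to 2908 for the difference and 331 to 478 alike, with 2169 and 331 without bone Co 4 and 2237 in bone without LiTra 2. Of 411 called gene values, 130 lost the call without at least 1 library and 0 reversed under any alternative run. Deviations of same-numbered bone and gingiva libraries correlated from -0.207 to 0.154 over 8 pairs. For 4 of the 8, the correlation was highest with the library of the same number. Whether numbers mark pairs was not settled, and the main fits did not use them. With the replicate block, 3185 genes were called in bone, 4601 in gingiva and 2849 for the difference, and the block across tissues gave 2471 for the difference.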

Other observations

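Of 13 adipocyte genes, 4 fell in bone and 4 in gingiva, and 9 did not pass in each tissue. The bone count was 2 without Co 4. In the complement and coagulation list, 6 of 18 rose in bone and 12 rose and 1 fell in gingiva, with 1 difference more positive in bone and 5 more positive in gingiva. Leaving out 1 library gave 1 to 9 rises in bone, with 1 without LiTra 2, 2 without LiTra 4 or Co 4 and 3 without Co 1 or Co 3. It gave 1 to 6 differences more positive in gingiva, with 1 without gingiva Co 1, 2 without any of bone LiTra 1 or Co 2 and gingiva LiTra 3 or Co 2, and 3 without any of bone LiTra 2 or 3 and gingiva LiTra 4 or Co 4. In the Schwann cell and myelin list, in bone 0 of 10 were called by edgeR, DESeq2 or limma-voom and 4 fell without LiTra 4, while 5 fell in gingiva and 3 without LiTra 1, LiTra 2 or Co 1. In the interferon response list, 3 of 18 fell in bone, and 1 without LiTra 3, LiTra 4 or Co 4. In gingiva 2 rose, beside 11.4% of all genes, with 1 without LiTra 1 or LiTra 4 and 0 without LiTra 3, Co 1, Co 2 or Co 3.

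Of 8 neutrophil-attracting chemokine and receptor genes, 3 rose in bone and 7 in gingiva, with 3 differences more positive in gingiva. The bone count was 1 without LiTra 2, Co 2, Co 3 or Co 4. The count of differences was 1 without any of bone LiTra 1, LiTra 3 or Co 1 and gingiva LiTra 1, LiTra 4, Co 1 or Co 3, and without bone Co 1 a further 4 were more positive in bone.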
